A study of Mus musculus with 9 samples.

Results

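Chemokines are small secreted proteins that guide leukocytes, and they act through G protein-coupled receptors on the cells they attract. This family was described in mouse brown adipose tissue (BAT), the heat-producing fat depot. Its members were chosen by gene name (Ccl, Cxcl, Cx3cl, Xcl, Ccr, Cxcr, Cx3cr or Ackr followed by a digit), and 42 of the 16937 genes listed in at least 1 of 3 deposited tables matched. They comprise 26 ligands, 12 signalling receptors and 4 atypical receptors (Ackr1 to Ackr4), which bind chemokines without signalling through G proteins. Inflammatory ligands such as Ccl2 and Cxcl10 are induced by cytokines and interferons and recruit monocytes and T cells, whereas homeostatic ligands such as Cxcl12 and Cxcl13 hold or position cells in a tissue. In fat, resident macrophages, stromal and endothelial cells and the adipocytes themselves can produce them, and Cxcl14 is known as a chemokine that active brown adipocytes secrete.

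RNA was sequenced from the BAT of 9 mice, 3 in each of 3 groups: wild type held at 23 °C (WT RT), wild type kept at 4 °C for 8 h (WT Cold), and whole-body Gcn2-/- mice kept at 4 °C for 8 h (GCN2 KO Cold). GCN2 is a kinase that senses amino acid shortage and is encoded by Eif2ak4. The study used adult mice of both sexes, 12 to 23 weeks of age, on a C57Bl/6J background of 10 generations, singly housed for 5 days at 23 °C with free access to food and water and killed at Zeitgeber time 9. Cold-exposed mice were moved at Zeitgeber time 1 to cages without bedding. No GCN2 KO group at 23 °C was analysed here, so genotype and temperature change together in GCN2 KO Cold against WT RT. Sex is not given per sample in the labels, and no comparison was adjusted for it.

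The libraries held 27055469 to 30766437 reads on the listed genes, and no listed gene had fewer than 61 reads over the 6 libraries of a table. The letters A, B and C name the libraries of each group. WT RT libraries have codes with another prefix than the cold ones, and whether they were prepared apart is not given in the sources used here, so preparation and temperature cannot be told apart. The title of replicate 3 of GCN2 KO Cold also names WT, and its group was taken from its genotype label. Eif2ak4 was not reduced in libraries labelled GCN2 KO Cold: it had 356 ± 13.3 normalized counts (SD, n = 3) there and 209 ± 33.2 in WT Cold, with an adjusted p of 0.0932 from limma. A count summed over the exons of a gene does not resolve a deletion of part of it, and the part removed is not given in the sources used here. Groups were tested with limma on log2(normalized count + 1), a scale that understates the change of low genes, and "called" means an adjusted p under 0.05 together with an absolute log2 fold change over 1.

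Levels of different members were compared as reads per 1000000 (CPM) per kilobase of exon. In WT RT the mean level ran from 0.0371 ± 0.0145 CPM per kb (SD, n = 3) for Ccr9, the gut-homing receptor, to 66.2 ± 20.8 for Ccl6, and 10 of 42 members had a mean over 10 CPM per kb and 15 a mean under 1. Ccl6 is a macrophage CC chemokine found in rodents. Its 3 WT RT libraries were at 59.2, 89.6 and 49.9 CPM per kb, those of WT Cold at 63.7, 41.4 and 89.4 and those of GCN2 KO Cold at 28.4, 40.4 and 29.5. WT RT and WT Cold overlapped (log2 fold change 0.03, limma adjusted p = 0.952), and on this scale the GCN2 KO Cold libraries lay below both. Ccl11, the eosinophil attractant eotaxin, followed at 23.2 ± 4.71 CPM per kb. Next came Ccl8 (23.02 ± 10.8), Ccl9, a macrophage chemokine close to Ccl6 (22.8 ± 8.62), and Ccl7, a monocyte attractant (20.98 ± 17.1). From Ccl11 to Ccl7 the order is not larger than the spread between libraries.

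The order differed in both cold groups. In WT Cold the 3 highest members were Ccl6 at 64.8 ± 24.04 CPM per kb, Ackr3 at 40.99 ± 6.14 and Cxcl13 at 20.7 ± 0.781, which together held 54.6% of the summed level per kb of 42 members. In the libraries labelled GCN2 KO Cold they were Ackr3 at 46.5 ± 6.99, Ccl6 at 32.8 ± 6.62 and Cxcl14 at 20.8 ± 6.202, with 58.0% of the level of 41 members, against 39.5% for the 3 highest in WT RT. Ackr3 takes up and removes Cxcl12, Cxcl13 attracts B cells, and Cxcl14 attracts macrophages and other myeloid cells. Ccr9 was not listed in either table with GCN2 KO Cold.

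**Figure D1:**
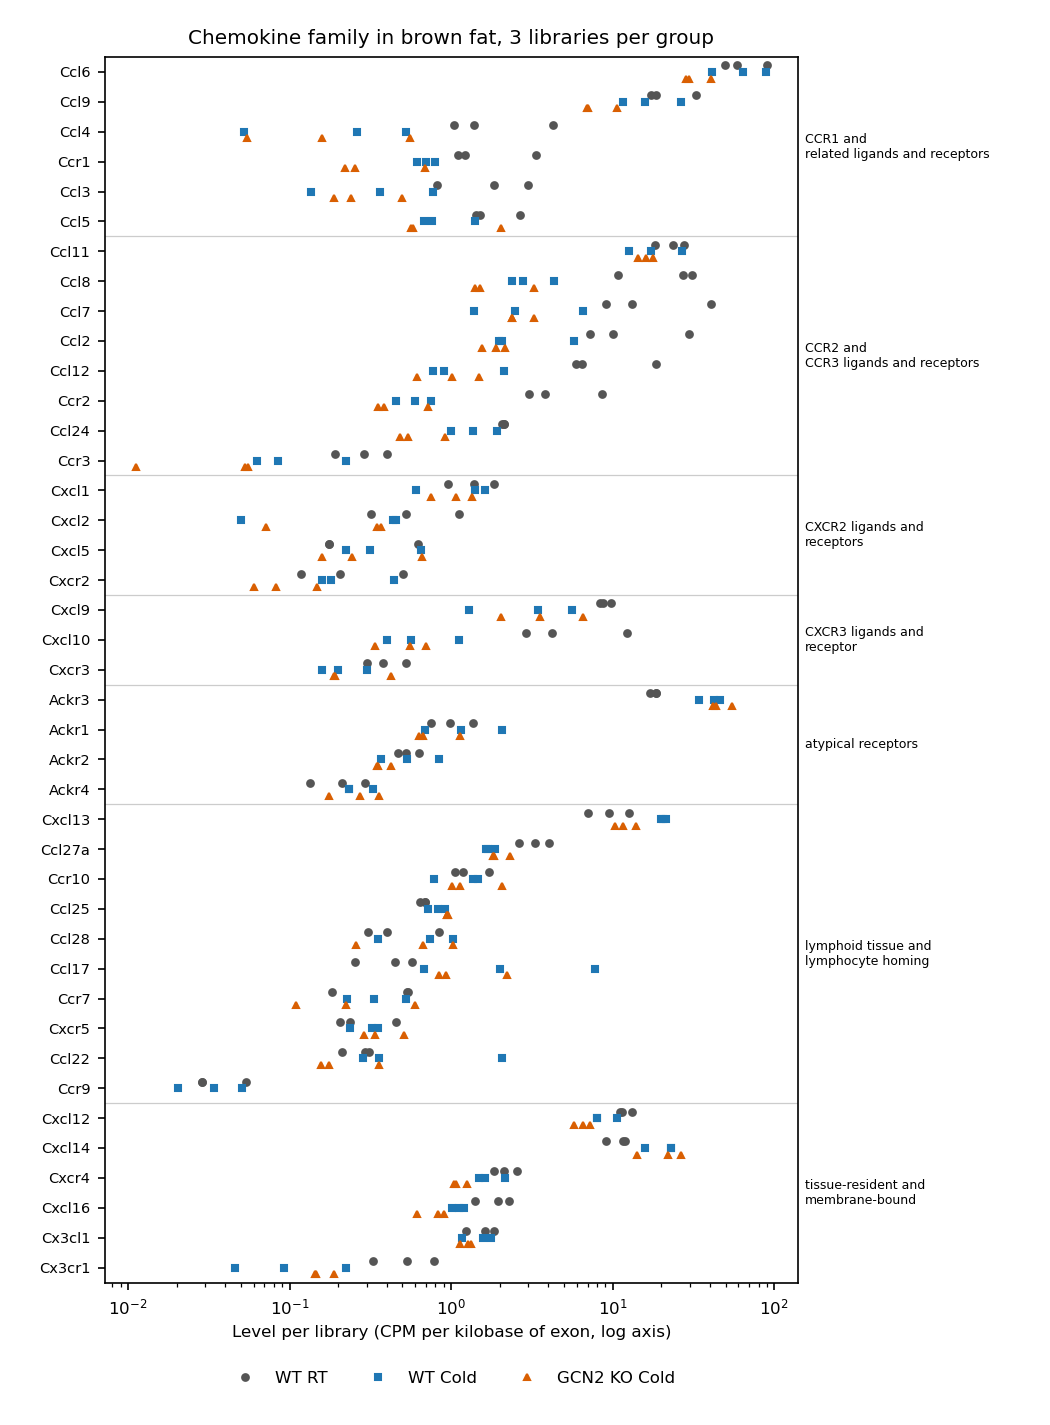
Level of 41 family members in each library, in CPM per kilobase of exon on a log axis, grouped by role and ordered by the WT RT mean; each point is 1 library (circles WT RT, squares WT Cold, triangles GCN2 KO Cold). Ccl6 is among the 2 highest members in each group, the WT RT points of Ccr2, Ccl2, Ccl7, Ccl8, Ccl12 and Cxcl10 lie to the right of both cold groups, and those of Ackr3 and Cxcl14 to the left.

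Libraries within a group did not spread evenly. WT RT library B held the highest value of its group for 28 of 41 members (68.3%), against 41.3% of 16592 genes with a value in every library. WT Cold library C was highest in its group for 26 of 41 members (63.4%, against 33.0% of all genes), and GCN2 KO Cold library B for 28 of 41 (68.3%, against 32.7%). The sum over the 41 members was 489 to 808 CPM in WT RT, 465 to 624 in WT Cold and 390.3 to 467 in GCN2 KO Cold. WT RT and WT Cold overlapped in this sum.

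Sequence upstream of 4 members is shown because they include the pair of CXCR3 ligands that fell and the 2 members that rose in WT Cold. RefSeq-derived promoters (GRCm38.p6) were matched by symbol for 30 of the 42 members, and the 250 bases before the start are printed 5′ to 3′ on the gene's strand. Capitals mark matches, on either strand, to the interferon-stimulated response element (ISRE, GAAANNGAAA), the STAT element GAS (TTCNNNGAA), the cAMP response element core (TGACGT), the NF-κB consensus and TATAAA. Members without a promoter in that set include Ccl2, Ccl4, Ccl5, Ccl7, Ccl11, Ccl24, Ccr7, Ccr10, Cxcl5, Cxcl16 and Cxcr5.
Cxcl10, minus strand, chr5:92348890-92349139: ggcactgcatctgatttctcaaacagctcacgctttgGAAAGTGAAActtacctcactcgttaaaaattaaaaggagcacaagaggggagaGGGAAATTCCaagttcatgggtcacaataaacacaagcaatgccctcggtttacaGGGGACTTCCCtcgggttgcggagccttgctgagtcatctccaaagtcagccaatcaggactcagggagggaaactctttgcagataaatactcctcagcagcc
Cxcl9, minus strand, chr5:92328080-92328329: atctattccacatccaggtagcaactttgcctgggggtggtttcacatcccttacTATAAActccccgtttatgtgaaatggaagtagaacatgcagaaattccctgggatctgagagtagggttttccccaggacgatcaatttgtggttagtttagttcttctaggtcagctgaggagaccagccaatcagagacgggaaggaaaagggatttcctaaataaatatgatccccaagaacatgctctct
Ackr3, plus strand, chr1:90203730-90203979: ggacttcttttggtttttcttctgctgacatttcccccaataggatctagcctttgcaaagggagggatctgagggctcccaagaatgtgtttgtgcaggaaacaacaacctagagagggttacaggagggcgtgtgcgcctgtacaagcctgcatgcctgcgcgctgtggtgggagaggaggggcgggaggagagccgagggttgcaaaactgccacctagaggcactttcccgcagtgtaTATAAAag
Cxcl13, plus strand, chr5:95956689-95956938: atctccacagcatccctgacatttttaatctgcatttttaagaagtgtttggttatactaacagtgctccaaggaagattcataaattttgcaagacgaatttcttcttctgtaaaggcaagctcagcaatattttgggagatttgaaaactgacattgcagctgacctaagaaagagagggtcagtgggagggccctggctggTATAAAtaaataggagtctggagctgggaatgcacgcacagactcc

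The Cxcl10 window held an ISRE match 213 to 204 bases before the start and NF-κB matches at 159 to 150 bases and, as 2 overlapping matches, at 104 to 94 bases. ISRE was found in 2 of 30 family promoters, those of Cxcl10 and Cxcl14, and in 3.04% of 27025 promoters of the same length. NF-κB matches stood in 7 of 30 (Ackr2, Ccl9, Ccr1, Ccr3, Cxcl1, Cxcl2 and Cxcl10) and in 7.01% of all promoters. TATAAA stood in 9 of 30, among them Ccl8, Ccl12, Cxcl9, Ackr3 and Cxcl13, and in 13% of all. GAS was in Ccl17 and Cxcl14 alone (7.18% of all promoters) and TGACGT in Cxcl1 alone (6.56%), so neither member that rose in WT Cold had a match to any of these but TATAAA in this window. A match describes letters and no binding was measured.

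WT Cold against WT RT asks what acute cold changes in wild-type BAT. The members called lower after 8 h at 4 °C included the monocyte receptor Ccr2 and its ligands Ccl2, Ccl7 and Ccl12. The largest estimated fall was that of Cxcl10, by 7.71-fold, close to that of Ccr2, by 7.33-fold, whereas Ackr3 and Cxcl13 were more than 2-fold higher. Of 42 members, 10 were called lower and 2 higher, where 5.15% and 2.99% of the 16679 genes tested were called in the same direction. The groups did not overlap for 13 lower and 5 higher members, where 45.5% of all genes did not overlap in either direction. The median log2 fold change was -0.27 over the members and 0.00 over all genes. Scaling to CPM in place of the authors' size factors moved the median of all genes by -0.08, and the called members kept their direction. Ccl3, Ccl4 and Ccr3 were listed only in the tables that hold WT RT, the group in which they were high, so they could enter through that group alone.

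The CCR2 axis draws monocytes out of the bone marrow and into tissue. Of the 8 members listed here as CCR2 and CCR3 ligands and receptors, with Ccl8 counted in, 5 were called lower. Ccr2, the receptor, had 729, 1613 and 613 normalized counts in WT RT libraries A, B and C and 120.2, 93.7 and 159 in WT Cold. The highest cold library stood below the lowest at room temperature (log2 fold change -2.87 with SE 0.36, limma adjusted p = 0.00151). Ccl12, a mouse monocyte attractant, had 89.9, 276 and 103 normalized counts in WT RT and 14.4, 12.6 and 35.7 in WT Cold (log2 fold change -2.805 with SE 0.53, limma adjusted p = 0.00717). Ccl8 had 394, 441 and 165 in WT RT and 36, 43.2 and 69.3 in WT Cold (log2 fold change -2.66 with SE 0.40, limma adjusted p = 0.00316). These 3 genes did not overlap between groups and were called whichever library was left out.

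The same list holds 2 ligands whose calls were lost when any 1 of several libraries was left out. Ccl7 had 207, 906 and 318 normalized counts in WT RT and 59.6, 33.7 and 164 in WT Cold (log2 fold change -2.48 with SE 0.67, limma adjusted p = 0.0283). Ccl2, the main CCR2 ligand, had 232, 947 and 343 in WT RT and 69.8, 68.5 and 206 in WT Cold (log2 fold change -2.07 with SE 0.58, limma adjusted p = 0.0334). WT RT library B was the highest and WT Cold library C the highest of its group for both, and the groups stayed apart by a narrow margin. Without WT RT library B the adjusted p was 0.0804 for Ccl7 and 0.0838 for Ccl2. Without WT RT library C these were 0.0627 and 0.0682, without WT Cold library A 0.0771 and 0.0975, and without WT Cold library B 0.0903 and 0.1098. Among the CCR3 members, Ccl11, Ccl24 and the receptor Ccr3, which eosinophils carry, were not called, with log2 fold changes of -0.26, -0.52 and -1.22 and overlapping groups.

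Cxcl9 and Cxcl10 are induced by interferon-γ and attract activated T cells and natural killer cells through CXCR3. Cxcl10 had 267, 767 and 197 normalized counts in WT RT and 38, 27.4 and 79.1 in WT Cold, with no overlap, and the largest estimated fall of the family (log2 fold change -2.95 with SE 0.55, limma adjusted p = 0.00708). It kept its call without any single library. Its exons share 133 bases with Art3 on the opposite strand, and whether the counting used strand is not given in the sources used here. Cxcl9 had 711, 823 and 790.1 in WT RT, a narrow range, and 116, 316 and 531 in WT Cold, a wide one (log2 fold change -1.52 with SE 0.47, limma adjusted p = 0.0464). Its adjusted p was 0.0998, 0.119 and 0.114 without WT RT library A, B or C and 0.0918 without WT Cold library B, and its log2 fold change was -0.91 without WT Cold library A. DESeq2 and edgeR on the recovered reads did not call Cxcl9 either (adjusted p = 0.0884 and 0.0659). Cxcr3 itself had 14.8, 25.4 and 19.7 normalized counts in WT RT and 8.2, 15.8 and 10.8 in WT Cold, and its groups overlapped (log2 fold change -0.75 with SE 0.39, limma adjusted p = 0.187).

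Macrophage inflammatory proteins attract macrophages and T cells, in part through CCR1. Ccl4, a member of that set, was low throughout, at 19.5, 78.8 and 27.6 normalized counts in WT RT and 1, 10.5 and 5.4 in WT Cold, and WT Cold library A held 1 read (log2 fold change -2.76 with SE 0.75, limma adjusted p = 0.0293). The adjusted p of Ccl4 was 0.0993 without WT RT library B, 0.0650 without WT RT library C and 0.0666 without WT Cold library A. Ccl3, a close relative, had 17.6, 64.3 and 42.3 in WT RT and 3.1, 8.4 and 18.4 in WT Cold, overlapped and missed the threshold (log2 fold change -2.05 with SE 0.67, limma adjusted p = 0.0551). Ccr1 did not overlap but missed it too (log2 fold change -1.15 with SE 0.40, limma adjusted p = 0.0672). DESeq2 called both lower (Ccl3 -2.06, adjusted p = 0.0151, and Ccr1 -1.33, adjusted p = 0.00786), and edgeR called neither. Ccl9 and Ccl6, the most abundant ligands of this group, had log2 fold changes of -0.28 and 0.03 with 95% confidence intervals of -1.04 to 0.49 and -0.65 to 0.71.

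Cx3cr1, the fractalkine receptor of patrolling monocytes and resident macrophages, had 67.6, 97.9 and 44.3 normalized counts in WT RT and 29.8, 12.6 and 6.5 in WT Cold (log2 fold change -2.203 with SE 0.54, limma adjusted p = 0.0203). The groups did not overlap, but its adjusted p was 0.0629 without WT RT library A, 0.0747 without WT RT library B and 0.0642 without WT Cold library B. Its exons share 78 bases with Gm33858 on the opposite strand. Its ligand Cx3cl1, a membrane-bound chemokine of endothelium, had 181, 201 and 146 in WT RT and 185, 209.6 and 143 in WT Cold, with overlapping groups. Cxcl16, which is also made as a membrane protein, and Ccl27a, a skin chemokine, passed the adjusted p but not the fold threshold, with log2 fold changes of -0.64 (adjusted p = 0.0466 from limma) and -0.84 (adjusted p = 0.0158 from limma). The exons of Cxcl16 share 552 bases with Zmynd15 on the opposite strand.

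Neither member that rose belongs to the monocyte attractants. Ackr3 had 1610.1, 1740.0 and 1849 normalized counts in WT RT and 4614, 4296 and 3580.0 in WT Cold, a gap far wider than the spread in either group (log2 fold change 1.26 with SE 0.11, limma adjusted p = 0.000409). Cxcl13 had 410.4, 306 and 244 in WT RT and 706, 694 and 770.2 in WT Cold, again without overlap (log2 fold change 1.204 with SE 0.18, limma adjusted p = 0.00314). Both were called whichever library was left out. Cxcl14 had 598, 605 and 501 in WT RT and 1256, 1271 and 906 in WT Cold, and its log2 fold change of 0.997 (adjusted p = 0.00324 from limma) lay just under the fold threshold, so that DESeq2 (1.01) and edgeR (1.01) called it. Ccl17, a ligand of CCR4 made by dendritic cells and macrophages, had 6.5, 3.6 and 8.9 in WT RT and 30.8, 10.5 and 125 in WT Cold, which did not overlap, but WT Cold library C stood far above the rest (log2 fold change 2.36 with SE 0.81, limma adjusted p = 0.0645). Ccl22, its partner ligand, showed the same library at the top, with 13.9, 19 and 21.6 in WT RT and 24.7, 20 and 151 in WT Cold (log2 fold change 1.199 with SE 0.71, limma adjusted p = 0.244). DESeq2 and edgeR called Ccl17 and DESeq2 called Ccl22, whereas limma called neither. Cxcl12, the ligand Ackr3 removes, had 2651, 2991 and 2703 in WT RT and 1948, 1978 and 2709 in WT Cold (log2 fold change -0.35 with SE 0.13, limma adjusted p = 0.0906), and its signalling receptor Cxcr4 had a log2 fold change of -0.22 (95% confidence interval -0.73 to 0.28).

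**Figure D2:**
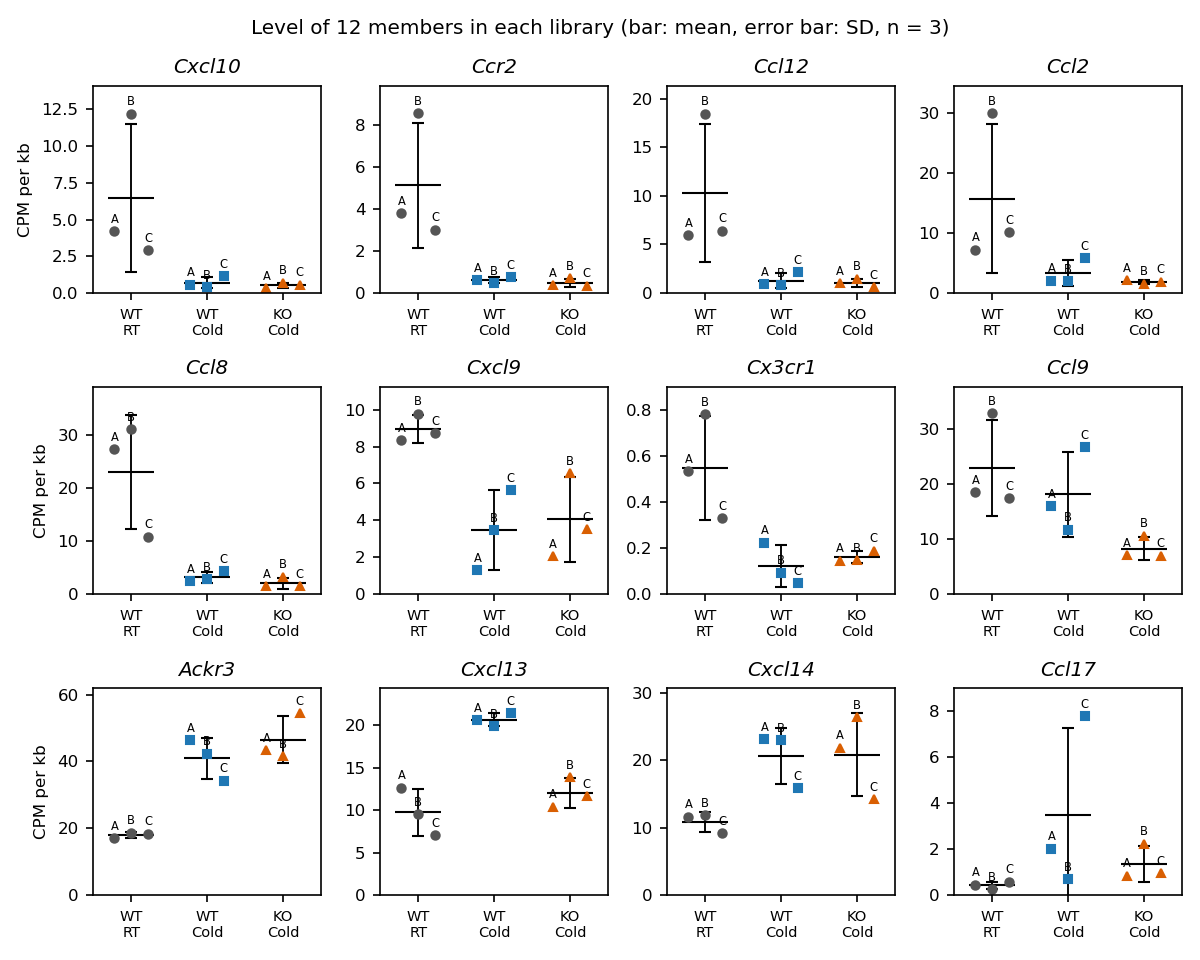
Level of 12 members in each library in CPM per kilobase of exon; letters name the library within its group, the horizontal bar is the mean and the error bar the SD (n = 3), which for Ccl17 in WT Cold runs below 0 and is drawn to 0 only. WT RT library B is the highest point for Cxcl10, Ccr2, Ccl12 and Ccl2, Ackr3 and Cxcl14 are higher in every cold library than in any WT RT library, and WT Cold library C stands alone for Ccl17.

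The remaining members gave no call in WT Cold. None of the 4 CXCR2 members, which draw neutrophils, passed the threshold: Cxcl1, Cxcl2, Cxcl5 and Cxcr2 had log2 fold changes between -1.20 and 0.46. Ccl5, a T cell and macrophage product, had 40.8, 71.6 and 41.3 normalized counts in WT RT and 19.5, 22.1 and 42.2 in WT Cold (log2 fold change -0.88 with SE 0.38, limma adjusted p = 0.121). Ccl25, the thymic and gut ligand, did not overlap but missed the threshold (log2 fold change 0.36 with SE 0.14, limma adjusted p = 0.0987). The receptors Ccr7, Ccr9, Ccr10 and Cxcr5, the ligand Ccl28 and the atypical receptors Ackr1, Ackr2 and Ackr4 had overlapping groups and log2 fold changes between -0.06 and 0.54.

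Genes that act with the family were counted from lists chosen with earlier results known. Of 23 receptor signalling genes, 3 were called lower and none higher in WT Cold, where 5.15% and 2.99% of all genes were called in the same direction. These were Dock2, a Rac activator of migrating leukocytes (log2 fold change -1.58, adjusted p = 0.00744 from limma), Vav1, a further exchange factor of blood cells (-1.49, 0.00796), and Itgb2, the leukocyte integrin beta chain (-1.48, 0.0111). Of 13 listed inducers, cytokines and transcription factors, 3 were called lower, among them Irf7 (-2.51, adjusted p = 0.00137 from limma) and Stat2 (-1.41, 0.00147), which act in the interferon response. Ifnb1, Ifng, Il1a and Il6 were not listed in that table. Among 5 proteases that cut chemokines, Mmp9 was called lower (-1.02, adjusted p = 0.0220 from limma), whereas 1 had a log2 fold change above 0 (0.57) with groups apart and no call. The 5 chemokine genes that the name rule leaves out (Pf4, Ppbp, Xcr1, Ccrl2 and Cklf) gave no call.

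Some leukocyte markers were called lower in the same comparison, and others were not called or had positive fold changes. Over all genes, 5.15% were called lower and 2.99% higher. Of 10 macrophage markers, 3 were called lower in WT Cold (Fcgr1, Cd68 and Adgre1) and none higher, but Mertk and Cd163 had log2 fold changes of 0.61 (adjusted p = 0.00561 from limma, groups apart) and 0.89 (adjusted p = 0.0537 from limma). The sum over the list was 439 to 684 CPM in WT RT, 247 to 370.1 in WT Cold and 184 to 271 in GCN2 KO Cold. Of 6 monocyte markers, 3 were called lower (among them Ly6c2 and Chil3), with sums of 62.3 to 208, 57.5 to 65.9 and 37.02 to 66.7 CPM that overlapped between groups, and WT RT library B was the highest library of both lists. Of 6 T cell markers listed of 8, Lck alone was called lower, and the sums were 6.53 to 10.6, 4.55 to 5.56 and 5.25 to 6.61 CPM. Of 6 neutrophil markers, Csf3r was called lower (-1.38, adjusted p = 0.0184 from limma), whereas 4 had positive fold changes without a call (Mmp8, Ly6g, S100a9 and S100a8, from 0.60 to 1.16, list median 0.73), and the sums were 7.32 to 17.9, 13.2 to 19.9 and 10.9 to 18.4 CPM, with overlap. Of 5 natural killer cell markers, 2 were listed, and neither was called: Gzma had a log2 fold change of -2.88 (adjusted p = 0.0505 from limma), just short of the threshold and with groups apart, and Eomes had -0.48 with overlap. No B cell, dendritic cell or mast cell marker was called in WT Cold, and Siglecf, Epx and Prg2 of eosinophils, Klrb1c, Klre1 and Ncr1 of natural killer cells, Siglech, Cd3d and Cd28 were not listed in that table. Vascular endothelium markers summed to 539.8 to 595 CPM in WT RT, 616 to 753 in WT Cold, without overlap, and 499 to 604 in GCN2 KO Cold. None of these 6 markers was called in WT Cold, but Pecam1 (0.66, adjusted p = 0.00525 from limma) and Kdr (0.47, adjusted p = 0.00755 from limma) passed the adjusted p with groups apart. The list was mixed, as 2 of the 6 had log2 fold changes below 0 (lowest -0.27), 1 of them with groups apart. Fibroblast markers summed to 833 to 970.4, 638 to 726 and 423 to 541 CPM, with no overlap between any of the groups. None of these 5 was called in WT Cold, and Col3a1 (-0.60, adjusted p = 0.00111 from limma), Lum (-0.58, 0.0314) and Col1a1 (-0.34, 0.0418) passed the adjusted p alone. Lymph node, lymphatic endothelium, mesothelium and skeletal muscle markers had no call in WT Cold. The part of cell numbers in the values of the family was not tested, and in tissue RNA fewer cells of a type and less RNA per cell cannot be told apart. The brown adipocyte markers, of which Ucp1 and Elovl3 were called higher in WT Cold, summed to 17890.0 to 19818, 23364 to 25000.0 and 27284 to 28203 CPM, and red blood cell markers, 4 of 4 called higher, to 236 to 307, 515 to 2053 and 979 to 1884 CPM. Of 6 brown adipocyte markers, 2 had log2 fold changes below 0 in WT Cold (lowest -0.34, list median 0.17).

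**Figure D3:**
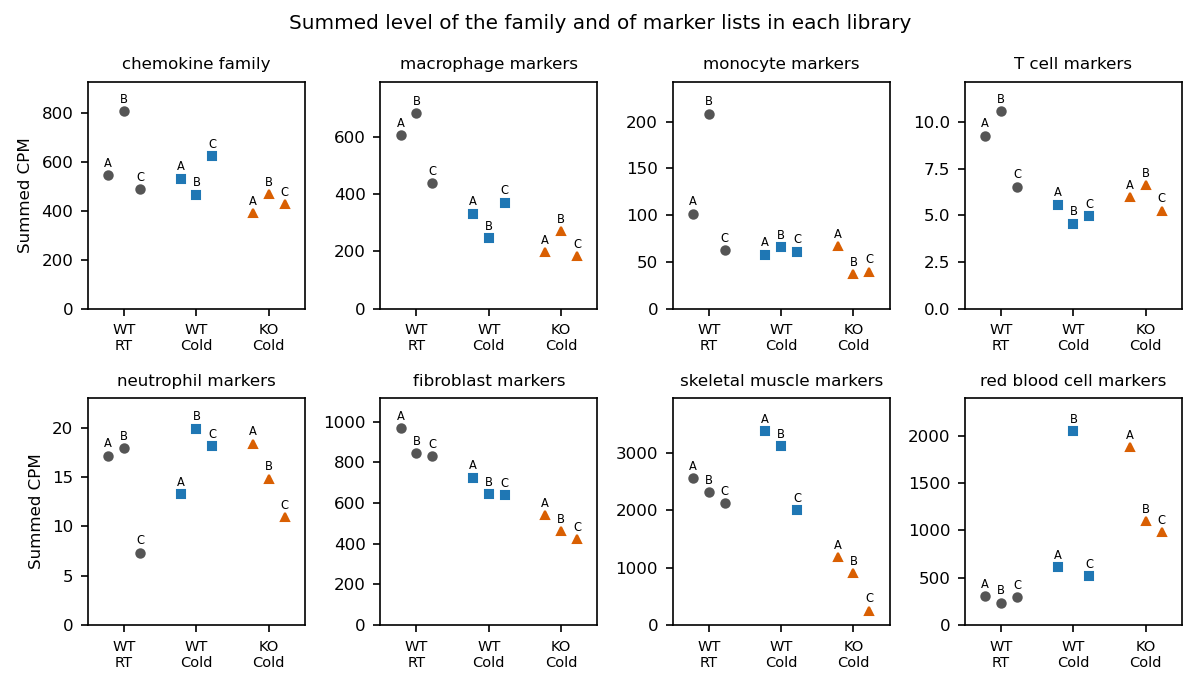
Summed CPM of 41 family members and of 7 marker lists in each library, lettered within its group; each axis starts at 0. Macrophage and T cell markers lie higher in WT RT than in WT Cold, WT RT library B is the highest monocyte value at 208 CPM, and skeletal muscle markers are lowest in the GCN2 KO Cold libraries, at 251 to 1187 CPM.

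Genomic neighbours did not all move together. In GRCm38, Ccl2, Ccl7, Ccl11, Ccl12 and Ccl8 lie side by side on chromosome 11 from 82035571 to 82116799, and 4 of these 5 genes were called lower in WT Cold. Ccl11, in the middle of that row, had 844, 713 and 592 normalized counts in WT RT and 554, 412 and 908 in WT Cold, with overlap (log2 fold change -0.26, 95% confidence interval -0.89 to 0.37). In the next cluster of that chromosome, from 83525778 to 83664683, Ccl4 was called and Ccl5, Ccl9, Ccl6 and Ccl3 were not. Cxcl9 and Cxcl10, both called, lie within 27543 bases on chromosome 5, from 92321347 to 92348889. Ackr3 lies on chromosome 1 from 90203980 to 90216751, and Cxcl13 on chromosome 5 from 95956951 to 95961068.

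GCN2 KO Cold against WT Cold asks whether loss of GCN2 changes BAT transcripts in the cold. No family member was called by limma among the 38 listed, where 0.196% of 16312 genes were called lower and 0.0613% higher. At an unadjusted p under 0.05 there were 5 members (Cxcl13, Ccl9, Ccl6, Ccl24 and Ccl25), where 15.3% of all genes reached it. DESeq2 called Ccl9 alone, lower (log2 fold change -1.03, adjusted p = 0.0152), where it called 1.28% of all genes, and edgeR called none. Cxcl13 (-0.67, adjusted p = 0.00284) and Ccl6 (-0.87, adjusted p = 0.0255) also passed the adjusted p of DESeq2 but not the fold threshold. The groups did not overlap for 6 members that were lower and 2 that were higher, where 22% of all genes did not overlap. The median log2 fold change was -0.18 over the members and 0.00 over all genes, and scaling to CPM moved the median of all genes by -0.12. Because this comparison and WT Cold against WT RT share the WT Cold libraries, their values are given for each member side by side and are not set against each other as independent.

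Cxcl13 had the lowest adjusted p. Its normalized counts were 349, 469 and 397 in libraries labelled GCN2 KO Cold against 627, 621 and 684 in WT Cold, which did not overlap (log2 fold change -0.68 with SE 0.13, limma adjusted p = 0.0931). Set against WT RT, the difference was 1.204 (log2) for WT Cold and 0.53 for GCN2 KO Cold as labelled, and the latter was not called (limma adjusted p = 0.0741). Ccl9 had 626, 947 and 627 normalized counts against 1279, 963 and 2241 in WT Cold (log2 fold change -0.96 with SE 0.31, limma adjusted p = 0.206), groups that stood apart by a narrow margin. Ccl6 had 1487, 2127 and 1566 against 3021, 2014 and 4446, which overlapped on this scale but not in CPM per kb (log2 fold change -0.82 with SE 0.28, limma adjusted p = 0.2297). For both, WT Cold library C was the highest of the 6 libraries. Ccl24, an eosinophil attractant, had 34.8, 18.4 and 20.8 against 46.6, 34.9 and 69.3, with almost no gap between the groups (log2 fold change -0.996 with SE 0.36, limma adjusted p = 0.255), and Ccl25 had 205, 208 and 209 against 179.8, 167 and 149, the higher values lying in the libraries labelled GCN2 KO Cold (log2 fold change 0.33 with SE 0.13, limma adjusted p = 0.305). The lowest fold change was that of Ccl22, with 10.5, 24.5 and 12 against 21.9, 17.9 and 134, where WT Cold library C was far above the other 5 libraries (log2 fold change -1.31 with SE 0.75, limma adjusted p = 0.4705).

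Of the members called in WT Cold against WT RT and listed here, Cxcl13 alone did not overlap between the 2 cold groups. Cxcl10 had 22.1, 45.9 and 37.2 normalized counts in libraries labelled GCN2 KO Cold against 33.8, 24.5 and 70.2 in WT Cold (log2 fold change -0.20, 95% confidence interval -1.25 to 0.84). Ccr2 had 75.9, 142 and 71.1 against 107, 83.9 and 141 (-0.24, -0.98 to 0.50). Ackr3 had 4231, 4086 and 5398 against 4101, 3844 and 3180.0 (0.30, -0.02 to 0.62). The intervals of Ccl8 (-1.49 to 0.40), Ccl2 (-1.51 to 0.48), Ccl12 (-1.27 to 1.06), Ccl7 (-1.198 to 1.23), Cxcl9 (-0.97 to 1.81) and Cx3cr1 (-0.48 to 1.96) on the log2 scale all hold 0 and all reach past 1 in size in at least 1 direction, so these data leave room for a 2-fold difference between the cold groups in each of them. Skeletal muscle markers summed to 251 to 1187 CPM in GCN2 KO Cold and 2008 to 3382 in WT Cold, with 7 of 7 markers lower in every GCN2 KO Cold library, and fibroblast markers to 423 to 541 and 638 to 726 CPM. Of 10 macrophage markers none was called, 9 had log2 fold changes below 0 (list median -0.43, against -0.0031 over all genes), 5 had an unadjusted p under 0.05, and the groups were apart for Cd68 (-0.83, adjusted p = 0.203 from limma) and Mertk (-0.23, adjusted p = 0.303 from limma). The macrophage sums were 184 to 271 CPM in GCN2 KO Cold and 247 to 370.1 in WT Cold, with overlap. No marker of any list was called in this comparison, although the sums of the vascular endothelium list, lower in GCN2 KO Cold, and of the brown adipocyte list, higher there, did not overlap between the cold groups either. The eosinophil and mast cell list, of which 3 genes were summed, was also lower without overlap (8.68 to 12.6 CPM in GCN2 KO Cold, 14.04 to 28.8 in WT Cold). The part of these lists in the values of the family was not tested.

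GCN2 KO Cold against WT RT sets the libraries labelled GCN2 KO Cold against the room temperature baseline. More members were called here than in WT Cold: 16 of 41 lower and 3 higher, where 7.58% and 3.01% of 16560 genes were called in the same direction. The 16 include Ccl3, Ccl4 and Ccr3, which could enter through WT RT alone, the group in which they were high. The groups did not overlap for 19 lower and 4 higher members, where 49.2% of all genes did not overlap. The median log2 fold change was -0.73 over the members and 0.01 over all genes. Scaling to CPM moved the median of all genes by -0.19 and the split of calls over all genes from 499 higher and 1255 lower to 326 and 1769. The WT RT libraries are those of the first comparison, so the 2 comparisons are not independent, and the larger count here is no test of a difference between genotypes.

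All 10 members called lower in WT Cold were among the 16. Ccl8 had 22.3, 52.2 and 24.2 normalized counts in libraries labelled GCN2 KO Cold against 371, 416 and 156 in WT RT (log2 fold change -3.201 with SE 0.44, limma adjusted p = 0.00126). Cxcl10 had 23.5, 48.9 and 39.3 normalized counts in the libraries labelled GCN2 KO Cold (log2 fold change -3.15 with SE 0.49, limma adjusted p = 0.00210), Ccr2 had 80.5, 151 and 75 (log2 fold change -3.11 with SE 0.39, limma adjusted p = 0.000883) and Ccl12 had 16.8, 25 and 10.4 (log2 fold change -2.905 with SE 0.48, limma adjusted p = 0.00264). None of these overlapped with WT RT. Ccl2 and Ccl7 varied less here than in WT Cold, with 76, 55.4 and 67 and 59.2, 81.5 and 60 normalized counts, and were called whichever library was left out (-2.58, adjusted p = 0.00336, and -2.46, adjusted p = 0.00514, from limma). Cx3cr1 had 20.1, 20.6 and 26.6 (log2 fold change -1.45 with SE 0.34, limma adjusted p = 0.0114). Ccl4 had 1.1, 3.3 and 11.5 (log2 fold change -2.81 with SE 0.74, limma adjusted p = 0.0199), and its adjusted p was 0.0755 without WT RT library B. Cxcl9 had 191, 619 and 332 (log2 fold change -1.097 with SE 0.35, limma adjusted p = 0.0429), and every single library of WT RT and libraries A and C of GCN2 KO Cold ended its call when left out, with adjusted p from 0.0603 to 0.108. DESeq2 (log2 fold change -0.94), edgeR (adjusted p = 0.0594), limma without a trend and the fit of all 3 groups did not call Cxcl9 in this comparison either.

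The other 6 members called lower here were not called by limma in WT Cold. Ccr3 was the lowest, with 5.6, 5.4 and 1.2 normalized counts in libraries labelled GCN2 KO Cold against 34.9, 24.8 and 17.6 in WT RT, and library C held 1 read (log2 fold change -2.52 with SE 0.55, limma adjusted p = 0.00890). Ccl24 had 36.9, 19.6 and 21.9 against 73.3, 70.1 and 78 in WT RT (log2 fold change -1.52 with SE 0.29, limma adjusted p = 0.00531). Both belong to eosinophil recruitment, and Ccl11, a further eosinophil attractant, was not called (-0.31, adjusted p = 0.141 from limma). Ccl9 had 664, 1008 and 662 against 1492, 2625 and 1492 in WT RT (log2 fold change -1.24 with SE 0.25, limma adjusted p = 0.00588), and its log2 fold change was -0.97 without WT RT library B. Ccr1, the receptor of Ccl9 and Ccl6, had 22.3, 60.8 and 19.6 against 82.9, 250.4 and 97.5 in WT RT (log2 fold change -2.04 with SE 0.53, limma adjusted p = 0.0181), with an adjusted p of 0.0564 without WT RT library B and 0.0585 without GCN2 KO Cold library C. Ccl3 had 4.5, 12 and 5.8 against 16.6, 60.7 and 39.9 in WT RT (log2 fold change -2.18 with SE 0.55, limma adjusted p = 0.0165), with 0.0666 and 0.0582 without WT RT library B or C. Cxcl16 lay just past the fold threshold (log2 fold change -1.04 with SE 0.23, limma adjusted p = 0.0101) and fell short of it without WT RT library A (-0.90) or GCN2 KO Cold library C (-0.88), and with a pseudocount of 5. Ccl6, Cxcl12 and Cxcr4 passed the adjusted p alone, with log2 fold changes of -0.79, -0.66 and -0.73, and Ccl25 did so in the other direction (0.69). The remaining 18 members overlapped between the groups, with log2 fold changes from -1.15 to 0.57.

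**Figure D4:**
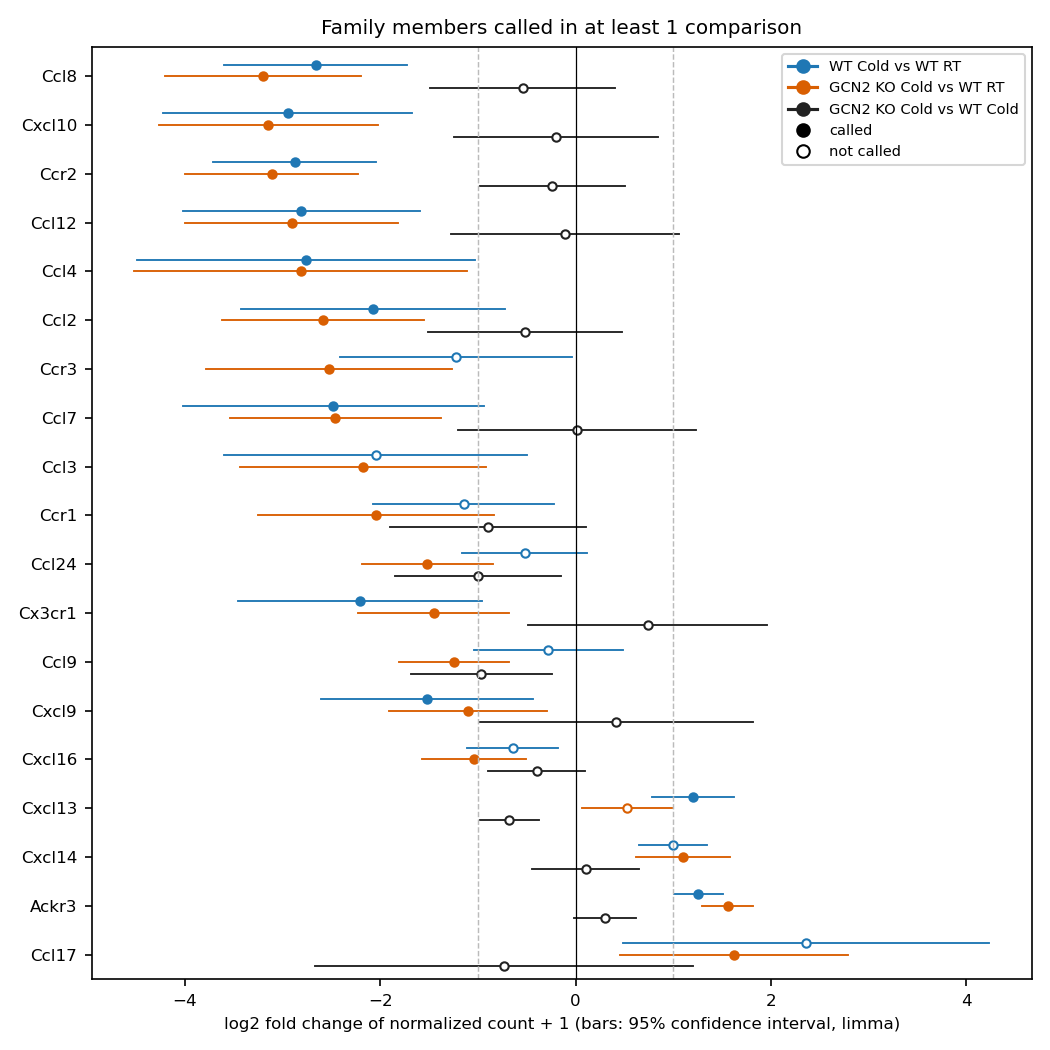
Log2 fold change on the log2(normalized count + 1) scale with its 95% confidence interval from limma for 19 of the 20 members called in at least 1 comparison; filled points were called, open points were not, and dashed lines mark the fold threshold. In both comparisons with WT RT the members from Ccl8 to Cxcl16 lie left of 0 and those from Cxcl13 to Ccl17 right of it, and no point of GCN2 KO Cold against WT Cold is filled; Ccl3, Ccl4 and Ccr3 have no value there because they were not listed.

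Of the 3 members called higher, Ackr3 had 4483, 4353 and 5698 normalized counts in libraries labelled GCN2 KO Cold against 1517, 1641 and 1744 in WT RT (log2 fold change 1.56 with SE 0.11, limma adjusted p = 0.000115), with no overlap and a call whichever library was left out. Cxcl14 had 1236, 1510.3 and 809 against 564, 571 and 472 in WT RT (log2 fold change 1.103 with SE 0.21, limma adjusted p = 0.00489), and without GCN2 KO Cold library B its log2 fold change was 0.90. It was 0.90, under the fold threshold, with CPM scaling and with all 3 groups in 1 fit. Ccl17 had 13.4, 35.9 and 15 against 6.1, 3.4 and 8.4 in WT RT (log2 fold change 1.62 with SE 0.51, limma adjusted p = 0.0394), with an adjusted p of 0.1195 and 0.0593 without GCN2 KO Cold library B or C and 0.0833 and 0.117 without WT RT library A or B. Its call was also lost with CPM scaling and with all 3 groups in 1 fit (adjusted p = 0.164 from limma in the latter), so that Ackr3 alone was called higher under both settings. Cxcl13, called higher in WT Cold, had 369.9, 499.8 and 419 normalized counts against 387, 289 and 230.2 in WT RT and overlapped with it. None of the 4 CXCR2 members was called here either.

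Of the receptor signalling genes, 8 of 23 were called lower in libraries labelled GCN2 KO Cold, where 7.58% of all genes were called lower and 3.01% higher. They were led by Pik3r5, the regulatory subunit of the G protein-driven PI3 kinase (log2 fold change -2.26, adjusted p = 0.00507 from limma), and Dock2 (-2.25, 0.000874). Of the 13 listed inducers, 4 were called lower, among them Irf7 (-2.53, adjusted p = 0.000716 from limma), Stat2 (-1.34, 0.000893) and Irf9 (-1.28, 0.000839). Outside the name rule, the platelet chemokine Pf4 (-1.36, adjusted p = 0.000481 from limma) and the decoy receptor Ccrl2 (-1.01, 0.0210) were called lower and Ppbp, also of platelets, higher (1.33, 0.0475). Macrophage markers were called lower for 7 of 10, monocyte markers for 4 of 6, mast cell markers for 3 of 3 listed of 6 in the eosinophil and mast cell list, dendritic cell markers for 2 of 5, skeletal muscle markers for 5 of 7, and 1 each of the fibroblast (Col3a1, -1.08), T cell (Lck, -1.13) and neutrophil (Csf3r, -1.88) markers. The macrophage markers Mertk (0.38, adjusted p = 0.0282 from limma, groups apart) and Cd163 (0.28, adjusted p = 0.446 from limma) had positive fold changes and were not called. Of 6 neutrophil markers, 4 had log2 fold changes above 0 here (list median 0.51), and none was called higher. Red blood cell markers were called higher for 4 of 4 and brown adipocyte markers for 2 of 6 (Ucp1 and Elovl3), and the remaining marker lists had no call. The part of these in the values of the family was not tested.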

How the data were processed

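RNA-seq of BAT from 9 mice was analysed. According to the study's methods, the authors prepared libraries with NEBNext Ultra II kits after oligo(dT) selection, trimmed reads with Trimmomatic (0.36), aligned them with STAR (2.5.2b), counted unique exonic reads with featureCounts of Subread (1.5.2) and tested groups with DESeq2; the labels name GRCm39. The strand setting is not given in the sources used here. The deposited values are a signal per gene and library, namely reads divided by a factor per library that differs between tables, and all of them (100%) could be turned back into whole reads (tolerance 0.001). The tables also hold the authors' fold changes and p-values, which were not used. Columns carry library codes, and libraries were assigned to groups by the tables in which their codes occur.

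Values were tested within a table on the log2(value + 1) scale with limma (version 3.58.1 under R 4.3.3), using a mean-variance trend, 2 groups of 3 libraries per fit and two-sided Benjamini-Hochberg adjusted p over all genes of the table. The authors' filter on low genes is not given in the sources used here. Levels across the 9 libraries are CPM, the recovered reads per 1000000 reads on the listed genes, and CPM per kb uses exon lengths from GENCODE M21 (GRCm38), from which positions and exon overlaps were taken too. The scripts were tested on simulated data. Alternatives were a pseudocount of 0.5 or 5, a mean value of at least 10 or 50, CPM scaling, limma without a trend, DESeq2 (version 1.42.0) and edgeR (version 4.0.16) on the recovered reads, no fold threshold, all 3 groups in 1 fit, and each library left out.

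Members and gene lists were chosen with earlier results of these data known. Every listed member could be named (1 member and 2 genes of other lists enter the counts but are not reported here), with full statistics for called members and the 3 highest per kilobase, and pathway genes are given as counts with at most 4 names. Counting error is largest in members with few reads such as Ccl4 and Ccr3.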

Additional observations from a re-analysis of the deposited data

How the results depend on the processing

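All 12 members called in WT Cold against WT RT and all 19 called in GCN2 KO Cold against WT RT kept their direction under every alternative that gave them a value, and 7 and 11 of them their call. In WT Cold against WT RT, the 10 members called lower became 6 with limma without a trend, which lost Ccl2, Ccl4, Ccl7 and Cxcl9, and 6 to 13 with each library left out, and the 2 called higher became 5 with DESeq2 and 4 with edgeR. Without WT RT library B the lower members were 6, having lost Ccl2, Ccl4, Ccl7, Cx3cr1 and Cxcl9 and gained Ccl27a. In GCN2 KO Cold against WT Cold, the count of 0 lower members became 1 with DESeq2. In GCN2 KO Cold against WT RT, the 3 members called higher became 1 with CPM scaling and 1 with all 3 groups in 1 fit, both without Cxcl14 and Ccl17, and 1 to 3 with each library left out (1 without GCN2 KO Cold library B).

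Only members that were not called changed sign. Ccl6 in WT Cold against WT RT had a log2 fold change of -0.0558 with CPM scaling and with all 3 groups in 1 fit, and -0.26 to 0.32 with each library left out. In GCN2 KO Cold against WT Cold, Cxcl14 had -0.0131 under the same settings, and Ccl7 had -0.10 under both, -0.27 with DESeq2 and -0.26 with edgeR. With each library left out, this comparison gave log2 fold changes of -0.0908 to 0.35 for Cxcl14, -0.49 to 0.63 for Ccl7, -0.19 to 0.91 for Cxcl9, -0.31 to 0.26 for Ccl11, -0.52 to 0.22 for Cxcl10, -0.39 to 0.34 for Ccl12, -1.54 to 0.17 for Ccl17 and -0.78 to 0.0045 for Ccl2. The causes were not tested.

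No paired analysis was possible because the deposited columns carry library codes and no replicate numbers. Over all genes of GCN2 KO Cold against WT Cold, limma called 10 higher and 32 lower, limma without a trend 5 and 1, DESeq2 26 and 183, edgeR 9 and 24, and the fit of all 3 groups 10 and 169. With each library left out it called 3 to 10 higher and 0 to 12 lower. Depth limits the members with fewest reads. In WT Cold against WT RT, 5 members lost their call when any 1 of several libraries was left out, and others such as Ccl27a gained one. Leaving a library out also lowers the number of libraries tested, so a lost call does not show that 1 library made it.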
